A study of Mus musculus with 50 samples.

Results

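Genes switched on in hippocampal microglia between postnatal day 9 (P9) and P200 were examined in 50 male C57BL/6J mice. The genes were chosen by their measured levels. Selection required that the mean CPM, the count of a gene divided by the total count of the mouse and scaled to 1000000, was at least 5 in P200 control mice injected with PBS and at least 5 times the mean CPM of P9 control mice. Of 53700 genes, 102 passed both limits. After removal of 29 predicted or unnamed genes (symbols of Gm with digits, or ending in Rik), 73 genes remained. Because the control mice of both ages chose these genes, their values are described here without a test, and the tests use the other groups.

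The P9 groups were P9-CTR (n = 12), raised under standard conditions, and P9-ELS (n = 13), raised with limited bedding and nesting material from P2 to P9, a model of early-life stress (ELS). P9 mice received no injection. The adult groups, all at P200, were CTR-PBS (n = 7), ELS-PBS (n = 6), CTR-LPS (n = 7) and ELS-LPS (n = 5), where LPS, a bacterial cell wall component, was given intraperitoneally at 1 mg/kg 3 h before sacrifice. Microglia of both hippocampi of a mouse were sorted as CD45int CD11b+ cells, and 1 RNA library was sequenced per mouse. The ages were separate cohorts, and injection and removal of myelin with Percoll took place only at P200, so that these differences cannot be told apart from age. Within an age, each nest number of the labels held mice of 1 condition.

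Microglia are the resident macrophages of the brain. In the first postnatal weeks they still divide and clear cells and synapses, and they later settle into a surveying state with its own receptors, secreted factors and regulators. LPS is sensed through a pattern recognition receptor and induces cytokines and chemokines within hours. The transcripts described here were chosen as higher at P200 than at P9 in control mice. The questions were whether ELS mice showed the same change and whether LPS moved these genes further.

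The labelled cell type was borne out by its markers. Every mouse had microglial transcripts, with 4678 to 17070 CPM of P2ry12, while Tmem119 ranged from 150.8 to 10360 CPM. Total counts per mouse ranged from 5152838 to 42231258. A count above 0 was found for 12482 genes in mouse P9_19.3_ELS and 15731 in mouse P9_19.2_ELS, in which 39 and 22 of the 73 genes were at 0, and for 12854 genes in CTR-PBS mouse 1.1. The summed level of 12 markers of border-associated macrophages was 570.2 to 1029 CPM in P9-CTR and 2.83 to 13.1 CPM in CTR-PBS, and that of 12 neuronal markers 105.1 to 261.3 CPM and 2.504 to 13.5 CPM. In bulk samples, fewer cells of a type and less RNA per cell cannot be told apart.

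The most prominent of the 73 genes were Upk1b and Tgm2. Upk1b encodes uroplakin 1b, a tetraspanin known from the surface of the bladder lining, and lies on the minus strand at chr16:38591981-38620727 (GRCm39). Tgm2 encodes transglutaminase 2, an enzyme that cross-links proteins through glutamine and lysine side chains, and lies on the minus strand at chr2:157958322-157988359. The 250 bases upstream of the annotated start of both genes are given here, because these genes mark the set, followed by those of Il6 and Hcar2, which are treated further on under LPS. Capitals mark a match to the motifs described below.

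Upk1b (chr16:38620728-38620977, minus strand): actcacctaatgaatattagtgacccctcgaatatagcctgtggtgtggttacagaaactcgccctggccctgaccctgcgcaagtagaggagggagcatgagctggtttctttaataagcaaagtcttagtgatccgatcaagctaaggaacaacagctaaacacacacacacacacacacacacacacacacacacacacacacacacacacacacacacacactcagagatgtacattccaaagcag
Tgm2 (chr2:157988360-157988609, minus strand): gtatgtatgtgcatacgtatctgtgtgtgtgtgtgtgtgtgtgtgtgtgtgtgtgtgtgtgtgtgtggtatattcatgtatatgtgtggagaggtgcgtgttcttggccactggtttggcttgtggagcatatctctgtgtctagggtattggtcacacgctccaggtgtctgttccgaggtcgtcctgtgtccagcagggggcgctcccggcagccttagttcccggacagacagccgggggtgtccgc
Il6 (chr5:30217862-30218111, plus strand): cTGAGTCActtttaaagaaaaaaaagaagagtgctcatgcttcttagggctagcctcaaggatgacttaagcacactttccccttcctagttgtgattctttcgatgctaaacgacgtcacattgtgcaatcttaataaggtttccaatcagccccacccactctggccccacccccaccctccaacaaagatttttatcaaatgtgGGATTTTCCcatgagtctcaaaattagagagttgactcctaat
Hcar2 (chr5:124003563-124003812, minus strand): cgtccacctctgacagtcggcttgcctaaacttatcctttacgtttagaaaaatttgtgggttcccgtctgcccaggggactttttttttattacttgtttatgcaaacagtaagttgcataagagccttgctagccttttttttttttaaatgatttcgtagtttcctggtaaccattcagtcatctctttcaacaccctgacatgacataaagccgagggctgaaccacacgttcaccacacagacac

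Windows of this length were read only for protein-coding genes, 70 of the 73 genes and 13085 of all genes tested. The κB form GGANTTTCC, searched on both strands, occurred in 1 of the 70 windows (1.43%, against 1.22% of all windows), and this was Il6, 43 bases upstream of the start. The AP-1 motif TGANTCA was in 5 windows (7.14%, against 4.46%), among them Il6, and the PU.1 motif GAGGAAGT in 1 (1.43%, against 2.16%). TATAAA was in 3 windows (4.29%, against 7.31%). The windows of Upk1b, Tgm2 and Hcar2 held none of these letters, while those of Upk1b and Tgm2 contained long dinucleotide repeats of CA or GT. The median GC content was 52.8% over the 70 windows and 56.4% over all windows, with a median of 7 and 12 CG pairs. Exon length was similar, with medians of 6.55 kb and 6.42 kb.

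Across the 73 genes the ratio of mean CPM between CTR-PBS and P9-CTR ranged from 5.099 to 159 with a median of 7.36. The ratio was above 10 for 25 genes, above 20 for 13 and above 100 for 3, namely Duoxa1, Tgm2 and Upk1b. The genes nearest to the threshold were Nav2 (5.099), Mctp1 (5.15) and Sult1a1 (5.25) on the inside, and Irf4 (4.98), Zfp37 (4.96) and Procr (4.85) on the outside. The mean level in CTR-PBS was above 100 CPM for 10 genes and under 10 CPM for 17. In P9-CTR the mean was under 1 CPM for 12 genes, so that many of the genes were low rather than absent at P9. In the annotation 70 of the genes are protein-coding and 1 is a long non-coding RNA, and they lie on 18 chromosomes with at most 8 genes on 1 of them.

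**Figure D1:**
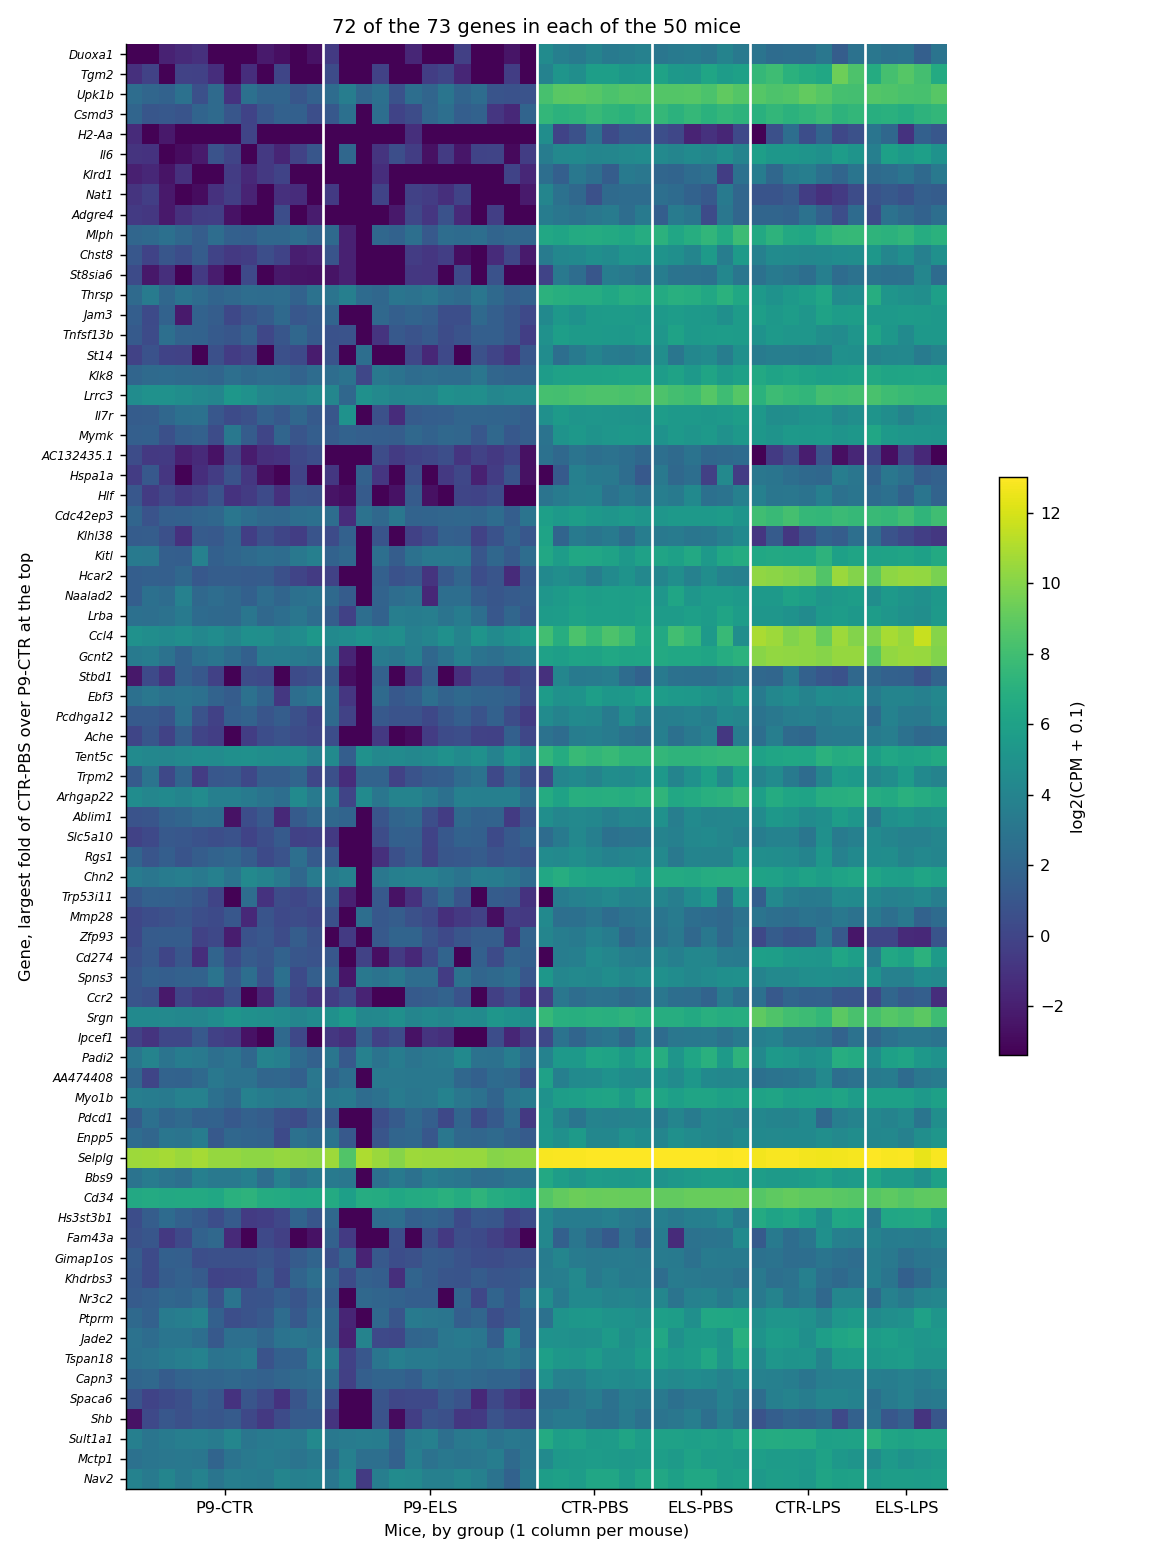
Heat map of log2(CPM + 0.1) of 72 of the 73 genes (rows, by the ratio of CTR-PBS to P9-CTR) in each of the 50 mice (columns, by group, with white lines between groups). The step between the P9 and the P200 mice runs through nearly all rows, mice P9_19.2_ELS and P9_19.3_ELS appear as dark columns, and Hcar2, Gcnt2 and Ccl4 brighten in the LPS groups.

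Upk1b was at 0.399, 3.58 and 6.61 CPM (lowest, median and highest mouse) in P9-CTR and at 304.2, 387 and 471 CPM in CTR-PBS. In ELS mice it was at 1.55, 3.88 and 11.6 CPM at P9 and at 334.1, 390.4 and 509.4 CPM in ELS-PBS. Every adult mouse therefore exceeded every P9 mouse, and the adult range was narrow. The log2 fold change of ELS-PBS against P9-ELS was 6.43 ± 0.33 (SE; edgeR's quasi-likelihood test, adjusted p = 3.94e-22).

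Tgm2 was at 0, 0.314 and 0.903 CPM in P9-CTR, with 5 of 12 mice at 0, and at 14.8, 38.6 and 56.5 CPM in CTR-PBS. In ELS mice it was at 0, 0 and 1.199 CPM at P9, with 7 of 13 mice at 0, and at 37.3, 55.9 and 76.4 CPM in ELS-PBS. The groups of the 2 ages did not overlap in either condition. In ELS mice its log2 fold change was 7.40 ± 0.56 (edgeR, adjusted p = 9.87e-16), the largest among the 73 genes. Of the 8 transglutaminase genes, 4 could be tested in the same contrast, where Tgm2 alone rose and 2 fell, against 8.68% and 17.5% of all genes tested. Of the 6 uroplakin genes only Upk1b passed the filter on low counts.

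Duoxa1, a maturation factor of the hydrogen peroxide-producing dual oxidase 1, had the largest ratio in control mice, 159. It was at 0, 0.0251 and 0.35 CPM in P9-CTR and at 9.55, 12.9 and 22.9 CPM in CTR-PBS. In ELS-PBS it was at 8.196, 9.80 and 15.5 CPM, against at most 0.716 CPM in P9-ELS. Duoxa1 shares 16% of its exon bases with Duoxa2 on the opposite strand, and the strand setting of the counting is not given in the sources used here, so that reads of these bases cannot be assigned. The same limit holds for other genes with a gene on the opposite strand, among them Tgm2 (13.2%), Cd274 (14.2%), Cdc42ep3 (16.7%) and Klk8 (29.1%). Csmd3, a large transmembrane protein with complement-like domains, was at 0.823, 2.00 and 4.69 CPM in P9-CTR and at 131.7, 162.4 and 199.4 CPM in CTR-PBS. Its ELS-PBS values of 137.7, 161.2 and 187 CPM lay in the same range. These 4 genes were thus near the detection limit or low in infant mice and clearly expressed in adult mice of both conditions.

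The next genes by ratio in control mice were H2-Aa (52.6), Il6 (31.5), Klrd1 (25.1), Nat1 (24.1), Adgre4 (23.8), Mlph (22.2), Chst8 (22.2) and St8sia6 (21.6). Il6 encodes the cytokine interleukin 6 and was at 10.9, 18.8 and 22.5 CPM in CTR-PBS, against 0, 0.405 and 1.92 CPM in P9-CTR. Mlph, a linker of melanosomes to myosin in pigment cells, was at 70.8, 95.3 and 105.8 CPM, against 2.65, 4.18 and 6.12 CPM. Both genes rose in ELS mice, Il6 by a log2 fold change of 4.55 ± 0.54 and Mlph by 5.198 ± 0.29 (edgeR, adjusted p = 1.15e-09 and 2.07e-20). Chst8, a sulfotransferase of N-glycans on glycoprotein hormones, reached a ratio of 77.7 in ELS mice, where its mean rose from 0.389 ± 0.504 CPM (SD, n = 13) to 30.25 ± 14.5 CPM (n = 6).

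H2-Aa, a chain of the MHC class II molecule that presents peptides to T cells, depended on 1 mouse. It was at 0.852, 2.00 and 25.4 CPM in CTR-PBS, and the highest value came from mouse 1.1. Without this mouse the mean was 2.35 ± 2.13 CPM, under the limit of 5 CPM, and the ratio 21.9. In ELS mice the level was low throughout, with 12 of 13 P9-ELS mice at 0 and 0.201, 0.672 and 1.33 CPM in ELS-PBS. A single P9-ELS mouse at 0.338 CPM lay within the ELS-PBS range. The rise was 4.14 ± 0.96 on the log2 scale (edgeR, adjusted p = 4.04e-04). Of 9 MHC class II genes tested, 6 rose and 1 fell between P9-ELS and ELS-PBS (against 8.68% and 17.5% of all genes tested).

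**Figure D2:**
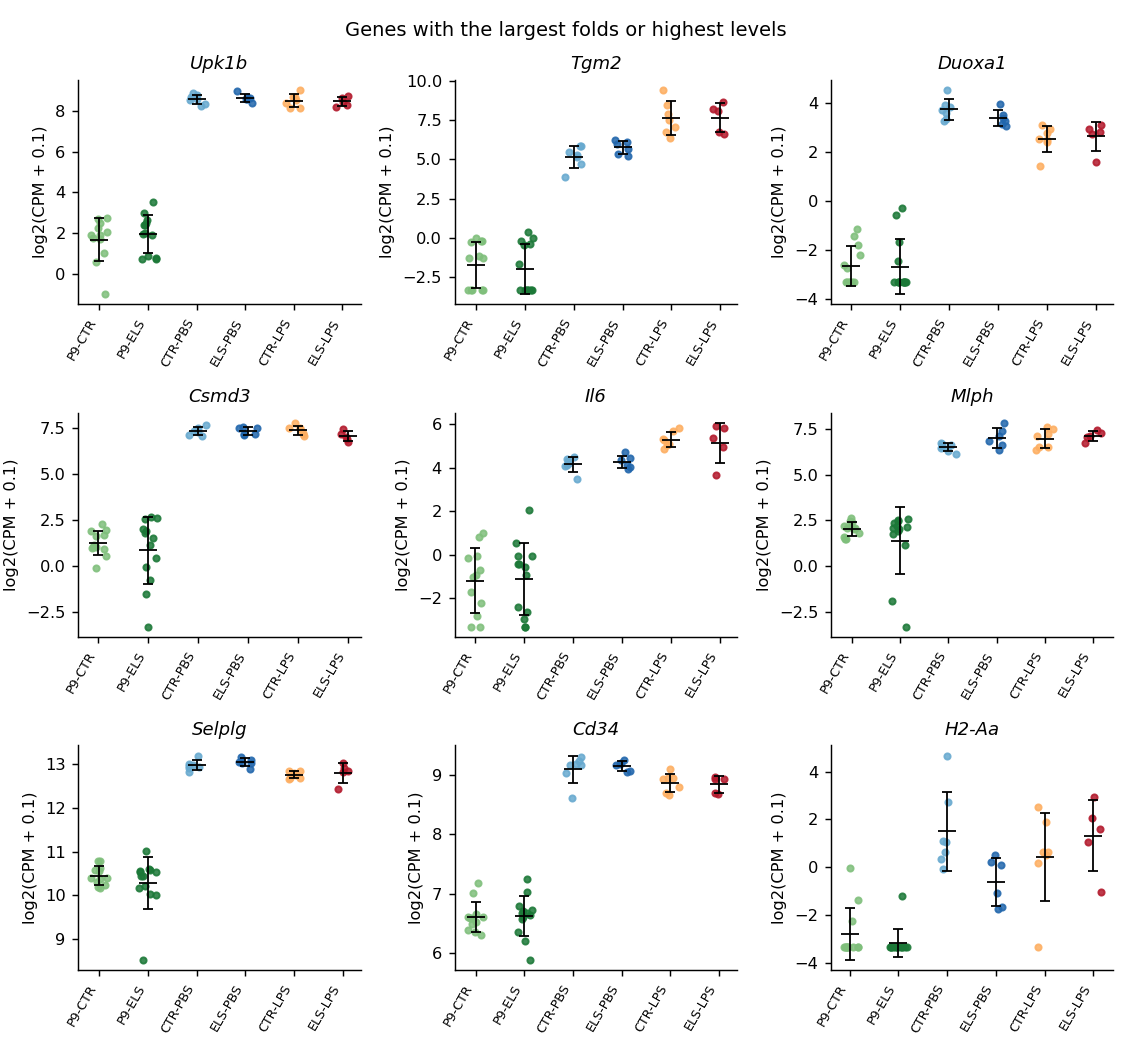
Levels of 9 of the genes as log2(CPM + 0.1) in each mouse (points) by group, with the mean and SD of the log2 values (black bars); n = 12, 13, 7, 6, 7 and 5 mice from left to right. Upk1b, Csmd3, Mlph, Selplg and Cd34 keep a similar level in all 4 adult groups, Tgm2 and Il6 lie higher in the LPS groups, and H2-Aa spreads widely among the CTR-PBS mice.

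Levels between genes were compared per kilobase of exon. Selplg stood highest, with 1878 CPM per kb in CTR-PBS, followed by Ccl4 with 324.5, Upk1b with 100.4, Lrrc3 with 71.1, Thrsp with 50.3, Srgn with 47.4 and Cd34 with 46.4 CPM per kb. Tgm2 was at 8.097 CPM per kb. Selplg encodes the ligand of P-selectin and is a known gene of homeostatic microglia. Its level was at 1150, 1346 and 1754 CPM in P9-CTR and at 7186, 7978 and 9350 CPM in CTR-PBS, a ratio of 5.69. It was therefore well expressed at P9 already. Of 30 genes of homeostatic microglia tested, 9 rose and 1 fell in ELS mice between P9 and P200, where 8.68% of all genes rose and 17.5% fell.

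By broad role, the largest set were 19 receptors, adhesion and membrane proteins. Besides Upk1b, Csmd3, H2-Aa and Selplg, these included Cd34, a sialomucin of blood progenitors and vessels (98.8 ± 19.6 CPM in P9-CTR and 555.2 ± 78.8 CPM in CTR-PBS), Adgre4, an adhesion G-protein-coupled receptor of macrophages (0.362 ± 0.397 and 8.62 ± 2.07 CPM), and Hcar2, the receptor for niacin and β-hydroxybutyrate. Il7r, the interleukin 7 receptor, Klrd1, a subunit of natural killer cell receptors, and Pdcd1, the inhibitory receptor PD-1, are best known from lymphocytes. Their means in CTR-PBS were 35.7 ± 5.54, 6.33 ± 2.86 and 17.5 ± 10.0 CPM. Of 17 markers of T and NK cells, 12 were at 0 in all CTR-PBS mice, among them Cd3d, Cd3e and Ncr1, and the summed level of the list was at most 0.567 CPM in this group. Ccr2, the receptor for CCL2 and a monocyte gene, was at 5.47 ± 2.41 CPM in CTR-PBS. The monocyte markers Ly6c2 and Chil3 were at 0 in all mice of this group, and the 12 markers together, Ccr2 included, were at 0.851 to 12.1 CPM there and at 5.01 to 14.8 CPM in P9-CTR. All 19 genes rose in ELS mice, as did 72 of the 73 genes, against 8.68% of all genes tested.

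Secreted signals were Il6, Ccl4, Tnfsf13b and Kitl, to which Srgn, the core protein of a proteoglycan of secretory granules, was added. Tnfsf13b encodes the B-cell survival factor BAFF and Kitl the ligand of the KIT receptor. Their ratios in ELS mice were 30.9 and 15.5. Ccl4, a chemokine that attracts leukocytes, varied most between mice of this set in each of the 4 adult groups. It was at 94.1, 229 and 345.9 CPM in CTR-PBS and at 25.2, 131.2 and 259.9 CPM in ELS-PBS, and the lowest ELS-PBS mouse lay within the P9-ELS range of 13.5 to 43.0 CPM. Of 33 cytokines and receptors tested, 12 rose and 2 fell in ELS mice. Of 25 chemokines and receptors tested, 3 rose and 7 fell. Among 18 genes of disease-associated microglia tested, Ccl4 included, 1 rose and 9 fell. These lists stand against 8.68% higher and 17.5% lower over all genes.

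Of the genes grouped as enzymes, 6 were assigned to proteins and 10 to glycans, small molecules or peptides. The grouping is broad, and the second set also holds Duoxa1, a maturation factor, and Stbd1, neither itself an enzyme. The first set held Tgm2, the serine proteases St14 (matriptase) and Klk8 (neuropsin), the metalloproteinase Mmp28, the peptidylarginine deiminase Padi2 and the calpain Capn3. The second set held Gcnt2, which makes the branched I antigen, Hs3st3b1, a heparan sulfate sulfotransferase, St8sia6, a sialyltransferase, Nat1, an arylamine acetyltransferase, and Sult1a1, a phenol sulfotransferase. Ache encodes acetylcholinesterase. All 16 genes rose in ELS mice, as did 72 of the 73 genes, against 8.68% of all genes tested. The ratios of the 16 genes ran from 5.13 for Mmp28 to 164 for Tgm2.

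Transcription and RNA regulators numbered 9. Thrsp, a nuclear protein linked to lipogenesis, had the largest ratio of them, 20.4, and Tent5c is a poly(A) polymerase that stabilizes mRNA. Hlf, a PAR-domain factor under circadian control, was at 6.85, 9.95 and 14.9 CPM in CTR-PBS, against 0.351, 0.868 and 1.97 CPM in P9-CTR. Its ELS-PBS values of 6.12, 11.15 and 20.8 CPM did not overlap with those of P9-ELS, which reached 2.34 CPM. Of 15 circadian genes tested, 7 rose in ELS mice and none fell (against 8.68% and 17.5% of all genes tested). Nr3c2 encodes the mineralocorticoid receptor, which binds corticosterone with high affinity. Nr3c2 was at 9.66, 16.7 and 24.7 CPM in CTR-PBS, against 1.63, 2.81 and 7.32 CPM in P9-CTR. In ELS-PBS it was at 7.50, 14.25 and 17.14 CPM, with a mean of 13.1 CPM against 2.71 CPM in P9-ELS. Of 14 glucocorticoid targets tested, Sult1a1 included, 9 rose and 3 fell, against 8.68% and 17.5% of all genes tested. The other sets were 7 signalling proteins such as Rgs1 and Arhgap22, 6 genes of cytoskeleton and traffic, 3 channels and transporters (Trpm2, Slc5a10 and Spns3) and 8 genes without an assigned role.

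Some identities are uncertain. Exon bases were shared with another annotated gene for 47 of the 73 genes. No single other gene covered most of the exon bases of any of them, and the part shared with all other genes together was not computed. The shared part was largest for Gimap1os, with 36.9% on the strand opposite to Gimap1, for AA474408 with 35.9%, and for Pcdhga12, which shares 32.7% with another gene of its protocadherin cluster. Hspa1a has a near-identical copy, Hspa1b. AC132435.1 was not found by its identifier in the annotation used and is named only.

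In ELS mice, which the rule did not use, the same change was seen for nearly all of the genes. ELS-PBS exceeded P9-ELS for 72 of the 73 genes (edgeR, adjusted p under 0.05 and log2 fold change above 1), against 8.68% of the 16696 genes tested. The median log2 fold change of the 73 genes was 3.34, against -0.0143 over all genes tested. For 63 genes the lowest ELS-PBS mouse exceeded the highest P9-ELS mouse, which held for 4.59% of the genes tested. The ratio of means reached 164 with a median of 10.1. It was at least 5 for 67 genes and above 10 for 37. Shares over all genes were not computed for these limits. The count of called genes stayed at 72 without mice P9_19.2_ELS and P9_19.3_ELS. The ratios of means in ELS mice include both mice and were not recomputed without them. Applied to the ELS mice in place of the control mice, the rule gave 93 genes, of which 64 were among the 73.

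**Figure D3:**
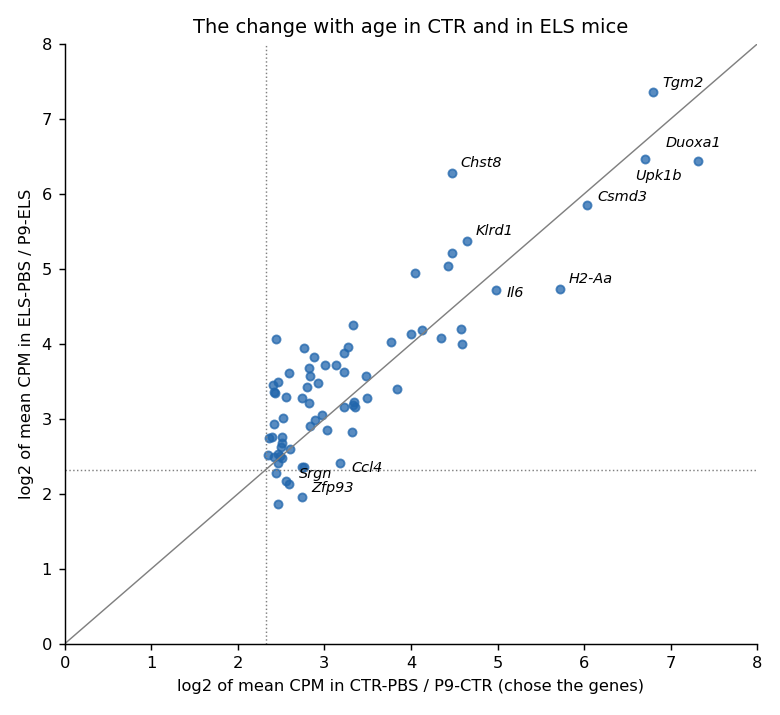
Ratio of mean CPM between P200 and P9 of 72 of the 73 genes on log2 scales, in control mice (x axis, CTR-PBS over P9-CTR, the values that chose the genes) and in ELS mice (y axis, ELS-PBS over P9-ELS). Dotted lines mark a ratio of 5 and the grey line equal ratios; 67 genes lie at or above the horizontal line, and Zfp93, Srgn and a few others lie below it.

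The smallest changes among the called genes were those of Khdrbs3 (log2 fold change 1.88 ± 0.32), Zfp93 (1.96 ± 0.52), Srgn (2.12 ± 0.19), AA474408 (2.15 ± 0.36), Nr3c2 (2.31 ± 0.43), Spns3 (2.40 ± 0.36) and Ccl4 (2.41 ± 0.29).

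Levels in ELS-PBS and CTR-PBS, which share the control mice of the rule, are given without a test. The log2 fold change of ELS-PBS against CTR-PBS had a median of 0.0431 over the 73 genes and lay between -3.04 (H2-Aa) and 1.09 (Ptprm). The value of H2-Aa rested in part on CTR-PBS mouse 1.1, as described above. The mean of Selplg was 8033 ± 669 CPM in control mice and 8434 ± 517 CPM in ELS mice after PBS, and Upk1b at 386.7 and 402.6 CPM. The spread between mice, as SD in percent of the mean, had a median of 29.1% in CTR-PBS and 25.4% in ELS-PBS, and 68% in P9-ELS.

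LPS changed 12 of the 73 genes in ELS mice. In ELS mice, 8 genes were higher in ELS-LPS than in ELS-PBS (against 4.69% of all genes tested) and 4 were lower (against 3.17%), while 61 were not called (edgeR, adjusted p under 0.05 and absolute log2 fold change above 1). These ELS-PBS mice also enter the contrast with P9-ELS. The median log2 fold change was -0.0398, against -0.0352 over all genes tested. All 12 called genes had the same direction of means in control mice, where no test is given because the CTR-PBS mice chose the genes. For the difference between the conditions in the response to LPS, an interaction was fitted over all genes with edgeR, and 0 of 16696 genes had an adjusted p under 0.05, while 980 had an unadjusted p under 0.05, among them 2 of the 73. This fit uses the CTR-PBS mice and is not read as a test of the 73 genes. TMM factors, by which edgeR scales libraries, differed by -0.215 on the log2 scale between ELS-LPS and ELS-PBS, so that the fitted changes lie above the log2 ratios of mean CPM by this amount.

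**Figure D4:**
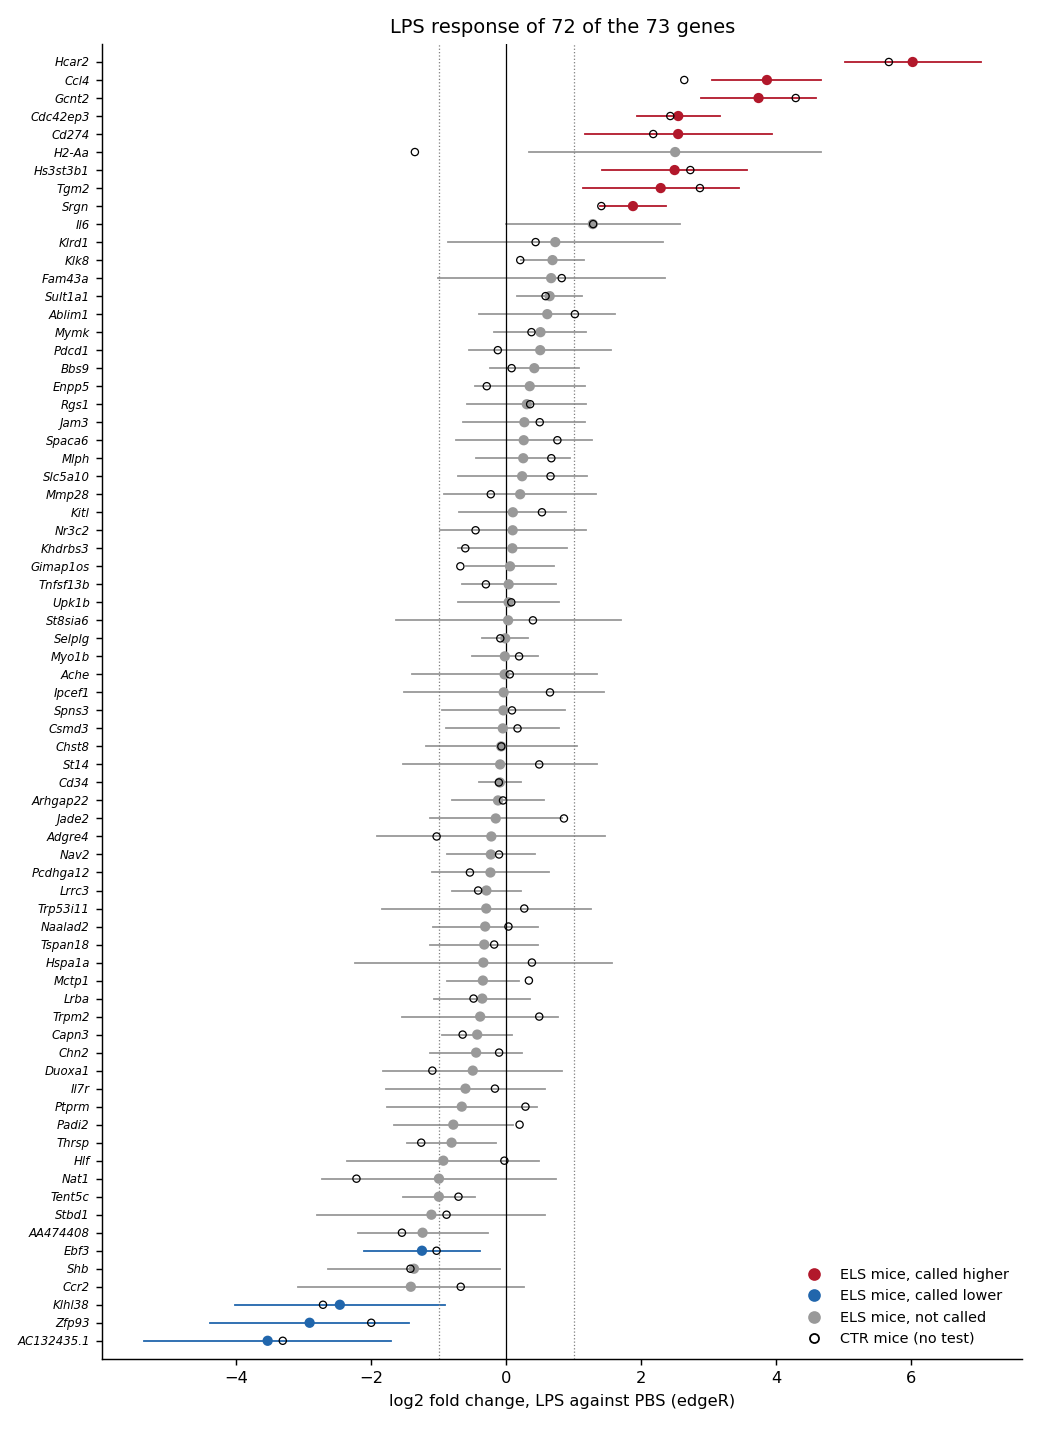
Log2 fold change of LPS against PBS for 72 of the 73 genes (edgeR), in ELS mice (filled points with bars of 2 SE to either side) and in control mice (open circles, no test); dotted lines mark -1 and 1. Hcar2, Ccl4 and Gcnt2 lie farthest to the right and AC132435.1, Zfp93 and Klhl38 farthest to the left, and most of the genes lie between the dotted lines.

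Hcar2 rose most. It was at 13.4, 15.6 and 26.2 CPM in ELS-PBS, and the 5 ELS-LPS mice had 474.9, 847.6, 1167, 1307 and 1338 CPM. In control mice it was at 11.8, 20.4 and 32.7 CPM after PBS and at 372.7, 992.4 and 1497 CPM after LPS. PBS and LPS mice did not overlap in either condition. In ELS mice Hcar2 rose on the log2 scale by 6.03 ± 0.50 (edgeR, adjusted p = 1.05e-13), on top of a rise of 3.59 ± 0.36 between P9-ELS and ELS-PBS.

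Gcnt2 and Ccl4 followed. Gcnt2 was at 73.1, 88.2 and 133.8 CPM in ELS-PBS and at 419, 946.6, 1282, 1404 and 1467 CPM in ELS-LPS (log2 fold change 3.74 ± 0.43, edgeR, adjusted p = 1.70e-09). Ccl4 was at 862.3, 1035, 1392, 1833 and 3108 CPM in ELS-LPS (3.87 ± 0.40, adjusted p = 1.19e-10). Both genes lay above all PBS mice in every LPS mouse of their condition. In control mice the ratio of CTR-LPS to CTR-PBS means was 17.8 for Gcnt2 and 5.63 for Ccl4. Of 25 chemokines and receptors tested, 16 rose after LPS in ELS mice and none fell, against 4.69% and 3.17% of all genes tested.

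Cdc42ep3, an effector of the small GTPase CDC42, was at 34.4, 42.5 and 48.2 CPM in ELS-PBS and at 163.2, 182.6, 207.5, 246.6 and 253.7 CPM in ELS-LPS (log2 fold change 2.55 ± 0.31, edgeR, adjusted p = 7.57e-09). Srgn rose by 1.88 ± 0.25 (adjusted p = 5.76e-08), with 95.4 to 121.1 CPM in ELS-PBS and 238.9 to 465.3 CPM in ELS-LPS. Cd274, the ligand PD-L1 of PD-1, rose by 2.55 ± 0.69 (adjusted p = 8.45e-03) and Hs3st3b1 by 2.497 ± 0.54 (adjusted p = 6.76e-04). Both were lowest in mouse P200_11.2_ELS_LPS, with 11.16 and 9.14 CPM, within the ELS-PBS range of Cd274 and below that of Hs3st3b1. This mouse was also the lowest of its group for Hcar2, Gcnt2, Ccl4 and Il6. Cd274 lost its call without mouse P200_20.1_ELS_LPS (adjusted p = 0.0509).

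Tgm2 had the lowest P9-ELS mean of the 8 genes that rose after LPS. The 5 ELS-LPS mice had 98.8, 104.5, 274.2, 290.6 and 401.9 CPM, all above the highest ELS-PBS mouse at 76.4 CPM. The CTR-LPS mice were at 81.7, 184.5 and 680 CPM, all above the highest CTR-PBS mouse at 56.5 CPM. Tgm2 rose by 2.29 ± 0.58 on the log2 scale in ELS mice (edgeR, adjusted p = 4.29e-03). The adjusted p was 0.0563 with the likelihood-ratio test of edgeR and 0.0846 with DESeq2, with a range from 4.55e-05 to 0.0846 over all alternatives. Of the 4 transglutaminases tested, 2 rose after LPS in ELS mice, against 4.69% of all genes. Upk1b, in contrast, was at 296.2, 315.4, 351.5, 394.5 and 425.4 CPM in ELS-LPS, within or near its ELS-PBS range, with a log2 fold change of 0.04 and an interval of 2 SE from -0.71 to 0.78.

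Il6 was at 12.4, 30.7, 41.7, 56.9 and 60.6 CPM in ELS-LPS, against 15.15, 18.6 and 26.0 CPM in ELS-PBS. Mouse P200_11.2_ELS_LPS fell below the PBS range and the others lay above it. The log2 fold change of 1.28 ± 0.65 did not pass (edgeR, adjusted p = 0.21, and 0.0103 to 0.365 under the alternatives). The CTR-LPS mice were at 28.6, 38.1 and 56.2 CPM, all above the CTR-PBS mice.

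The 4 genes that fell after LPS were AC132435.1, Zfp93, Klhl38 and Ebf3. Zfp93, a zinc finger protein, was at 4.31, 7.40 and 9.29 CPM in ELS-PBS and at 0.245, 0.261, 0.904, 0.908 and 1.68 CPM in ELS-LPS (log2 fold change -2.91 ± 0.74, edgeR, adjusted p = 4.46e-03). AC132435.1 was at 4.09, 4.83 and 7.22 CPM in ELS-PBS and at 0, 0.0478, 0.245, 0.782 and 0.85 CPM in ELS-LPS (-3.53 ± 0.92, adjusted p = 5.43e-03). Both groups of mice were apart for these genes. Their ELS-LPS means of 0.799 and 0.385 CPM were at or below those of P9-ELS, 1.80 and 0.589 CPM.

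Klhl38, a kelch-family protein, fell from 7.97, 10.2 and 21.0 CPM in ELS-PBS to 0.487, 0.673, 1.04, 1.67 and 5.32 CPM in ELS-LPS (log2 fold change -2.46 ± 0.78, edgeR, adjusted p = 0.0265). Its CTR-PBS mean of 16.9 ± 23.8 CPM rested on mouse 1.1 with 70.5 CPM, and the ratio to P9-CTR was 4.74 without it. Ebf3, a transcription factor of the early B-cell factor family, fell from 26.3, 42.5 and 49.8 CPM to 10.1, 13.3, 15.7, 15.8 and 18.19 CPM (-1.25 ± 0.43, adjusted p = 0.0456), with all LPS mice below all PBS mice. The calls of both genes were lost without single mice, such as ELS-LPS mouse 2.2 or ELS-PBS mouse 4.1, and that of Ebf3 without either any ELS-LPS mouse or any of 4 of the ELS-PBS mice. Tent5c fell by 1.00 on the log2 scale (adjusted p = 7.70e-03), just short of the limit of 1.

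**Figure D5:**
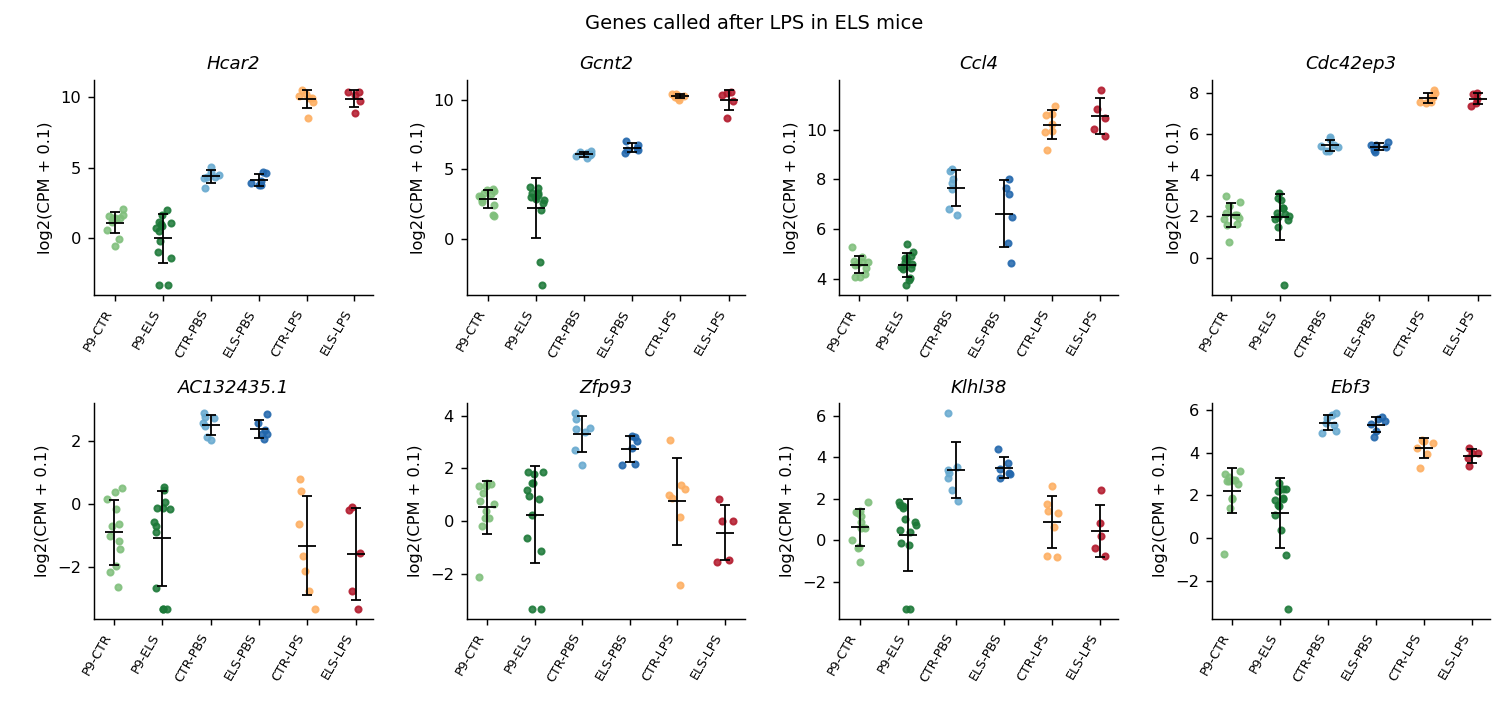
Levels of 8 genes called after LPS in ELS mice as log2(CPM + 0.1) in each mouse (points) by group, with the mean and SD of the log2 values (black bars); n = 12, 13, 7, 6, 7 and 5 mice from left to right. The upper row shows Hcar2, Gcnt2, Ccl4 and Cdc42ep3 above their PBS levels in both conditions, and in the lower row AC132435.1, Zfp93 and Klhl38 lie near their P9 levels in the LPS groups.

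After LPS most genes stayed above their P9 level. The ELS-LPS mean was at least 5 times the P9-ELS mean for 55 of the 73 genes (against 3.49% of all genes tested) and at most 2 times for 6 (against 89.5%), among them Zfp93, AC132435.1, Klhl38, AA474408 and Ccr2. For 14 genes the ranges of ELS-LPS and P9-ELS overlapped, as they did for 88.4% of all genes tested. Ccr2 was at 2.12 ± 1.46 CPM in ELS-LPS and 6.62 ± 2.63 CPM in ELS-PBS and did not pass (log2 fold change -1.41 ± 0.84, edgeR, adjusted p = 0.309), while the summed monocyte markers were at 17.27 to 32.0 CPM in ELS-LPS and 7.80 to 20.8 CPM in ELS-PBS. The part of other cells in these levels was not tested.

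Between conditions after LPS, 0 of the 73 genes were higher and 0 were lower in ELS-LPS than in CTR-LPS, against 0% of the 16696 genes tested in either direction (quasi-likelihood test of edgeR). Without adjustment, 798 genes had a p under 0.05, of which 1 was among the 73. DESeq2 and the likelihood-ratio test likewise called none of the 73, and over all genes they called 1 and 7 higher and 1 and 3 lower. The 1 gene was Zfp93, with a log2 fold change of -1.55 and an interval of 2 SE from -2.94 to -0.17 (adjusted p = 0.957). The interval lay within -1 and 1 for 26 genes and reached beyond for 47, so that a log2 difference of -1 or 1 lies within the interval for the latter. For Selplg it ran from -0.21 to 0.45 and for Hcar2 from -0.73 to 0.89.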

How the data were processed

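The deposited values were raw read counts per gene and mouse without normalization. The authors made them with bcl2fastq 2.20, cutadapt 2.10, STAR on GRCm39 and HTSeq 0.11.0, keeping unique reads within exons; annotation release and strand setting are not given in the sources used here. CPM was the count divided by the mouse total. Testing was limited to 16696 genes that reached 1 CPM in over 2 of the 50 mice, with TMM factors and edgeR 4.0.16 (R 4.3.3), 1 quasi-likelihood fit of the 6 group means and Benjamini-Hochberg adjustment. SE was derived from the test statistic. In simulated counts with 200 genes changed by a log2 fold change of 2 among 16696, 163 were recovered in ELS-PBS against P9-ELS (4 false calls), 151 in ELS-LPS against ELS-PBS (6) and 150 in ELS-LPS against CTR-LPS (2). The simulated mice were drawn independently, without an effect of nest, and each unchanged gene had the same mean CPM in all groups. Recovery in the real contrasts may therefore differ.

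Positions and exon lengths came from GENCODE M39 on GRCm39, where 72 of the 73 genes were found by identifier. Upstream sequences were read from the GRCm39 genome at the annotated canonical start.

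The genes, role lists and marker lists were chosen with earlier results of these data known, and broad roles were assigned from general knowledge. The named genes are Upk1b and Tgm2, the 12 largest control ratios, the 10 highest CTR-PBS levels, genes of the lists, the 6 largest rises and falls called after LPS, the 8 smallest changes with age in ELS mice and the genes next to the threshold; others are named as examples of their role and were chosen after their values were seen. Alternatives were the likelihood-ratio test, DESeq2 1.42.0, its size factors in edgeR, 2 other filters, pairwise fits, a log2 fold change limit of 0.1, voom (limma 3.58.1) with nest as random effect, a replicate block and leaving out mice. The nest was read from the first part of a mouse number, whose meaning the labels do not give. No 2 libraries of the same group agreed within sampling noise, and pairs from different groups were not compared. Values without CTR-PBS mouse 1.1 were added after seeing the data. P-values measure the spread between mice taken as independent. Every mouse shares its nest number with another mouse of its age. The 12 P9-CTR mice held 5 nest numbers and the 13 P9-ELS mice 4. The values of 1 of the 73 genes and of some markers are not reported here, and the gene is left out of the plots.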

Additional observations from a re-analysis of the deposited data

Results flagged for a closer look

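The values of 23 genes were screened in the 4 adult groups for a mouse far from the others of its group (Dixon's test at the 95% level on log2(CPM + 0.1)), which chance flags in about 1 of 20 groups. Of 92 gene and group pairs, 11 held such a mouse.

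CTR-PBS mouse 1.1 accounted for 5 of them. It had 10.9 CPM of Il6 (16.7 to 22.5 in the others), 392.7 CPM of Cd34 (524 to 633.3), 0 CPM of Cd274 (11.4 to 22.4), 70.5 CPM of Klhl38 (3.62 to 11.6) and 0.701 CPM of Ccr2 (4.71 to 8.45). This mouse also had the fewest genes with a count above 0 among the adult mice.

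In CTR-LPS, mouse 5.3 was low for Hcar2 with 372.7 CPM (824.1 to 1497 in the others) and for Hs3st3b1 with 26.7 CPM (57.8 to 97.2). Mouse 8.2 was low for Duoxa1 with 2.61 CPM (5.19 to 8.49), and mouse 1.2 had 0 CPM of H2-Aa (1.03 to 5.58 in the others).

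In ELS-LPS, mouse P200_20.1_ELS_LPS was low for Duoxa1 with 2.87 CPM (6.59 to 8.40 in the others), and mouse P200_11.2_ELS_LPS was low for Hs3st3b1 with 9.14 CPM (51.6 to 93.1).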

How the results depend on the processing

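The 72 genes called higher in ELS-PBS than P9-ELS were 68 to 73 under the alternatives. The 8 genes called higher after LPS were 7 to 10, and the 4 called lower were 3 to 6 under the alternatives other than voom with nest as random effect, which gave 7. Leaving out 1 adult mouse at a time gave 72 in each fit for age, 7 to 8 higher and 2 to 5 lower after LPS, with 2 lower without ELS-LPS mouse 2.2 or ELS-PBS mouse 4.1, where Ebf3 and Klhl38 were lost. No called direction reversed. In fits of the 2 compared groups alone, the quasi-likelihood adjusted p was 1.9e-11 for Upk1b with age and 1.1e-08 for Hcar2 after LPS. With nest as a replicate block, 8 genes were higher and 5 lower after LPS, and Ebf3 was lost (adjusted p = 0.0736). Deviations of PBS and LPS mice of 1 nest correlated by -0.0411 to 0.0624 in ELS mice and -0.0419 to 0.102 in control mice, so that the nest number was not treated as a pairing. Between ELS-LPS and CTR-LPS, each alternative called 0 of the 73 genes. The rule itself gave 74 genes with medians, of which 66 were among the 73, 80 with TMM-scaled CPM, all 73 included, and 66 to 78 without 1 CTR-PBS mouse. The 66 were found without mouse 1.1, with 63 of the 73 shared, and the genes lost included AA474408, Bbs9, Capn3, Fam43a, H2-Aa, Klhl38, Nat1, Pdcd1 and Sult1a1. Depth and group size bound the precision, with 17 of the 73 genes under 10 CPM in CTR-PBS and 5 ELS-LPS mice.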
